A study of Homo sapiens with 3 samples.

Results

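Apilimod is a small molecule that inhibits PIKfyve, the lipid kinase that makes the doubly phosphorylated phosphoinositide of endosomes and lysosomes. The comparison described here asks which metabolic genes MIA PaCa-2 cells needed while they grew for 14 days in apilimod. MIA PaCa-2 is a long-established human line derived from a pancreatic ductal adenocarcinoma. The cells carried a pooled lentiviral library of guide RNAs for Cas9 knockout of metabolic genes and had been selected with puromycin. A library sequenced from the pool at day 0, called the initial population, was set against a library from the same pool after apilimod. The labels give 200 nM of apilimod, whereas the methods of the study give another concentration for this arm, so the concentration is uncertain. The members were the guides with at least 100 counts in the initial population. They numbered 28567 of 30197 guides listed, of which 28080 targeted genes and 487 were control guides against intergenic sequence. Genes were scored where at least 6 guides were kept, which gave 28042 guides and 2969 of 2978 genes. Another library, grown for 14 days in the solvent DMSO, is given beside it for background.

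A guide that disables a gene needed for growth is lost from the pool as its cells divide more slowly or die, and a guide that speeds growth becomes more abundant. The guide count is therefore a readout of fitness, made on genomic DNA and not on RNA. Lysosomes return lipids, amino acids and metals from degraded material to the cell, and PIKfyve is known for its role in lysosome size, acidification and membrane traffic. Cells can draw on this return, on uptake from the medium or on synthesis for each building block.

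The initial, DMSO and apilimod libraries held 24695476, 26276517 and 25599416 counts, and the median guide held 651, 663 and 655 counts. There was 1 library per group, so no difference below has a replicate check and no p-value is given. Every statement compares these libraries and not the conditions at large. Among the kept gene-targeting guides, 99 (0.353%) had 3 or fewer counts in apilimod and 80 of them had 0, against 58 (0.207%) and 47 in DMSO. Each kept control guide retained at least 46 counts in apilimod. A gene's score is the mean over its guides of the log2 change in depth-normalised count from the initial population, less the median change of the control guides. A score of 0 is thus the level of the median control guide. The SD beside a score is taken over the guides of that gene and measures how guides differ within a library, not experimental error. Where a guide was at 0, its log2 change depends on the pseudocount of 1. The DMSO scores were made in the same way from the same initial library, so both arms share their starting counts. They are printed side by side, and no difference between them was tested.

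Many more genes were depleted than higher after growth in apilimod. A gene was called depleted where its score was at most -1 and at least 75% of its guides lay below the median control guide. By this rule 281 of 2969 genes (9.46%) were depleted in apilimod and 188 (6.33%) in DMSO. A gene was called higher at a score of at least 0.5 with at least 75% of guides above the median control guide, which 12 genes met in apilimod (0.404%) and 2 in DMSO (0.0674%). The smaller size for rises was chosen because a guide can vanish in 14 days but can rise only by the growth advantage of its cells. Gene scores in apilimod ran from -4.19 to 0.88 with a median of -0.26, and 2386 genes (80.4%) lay below 0. The median in DMSO was -0.17. The split between the calls depends on what is set to 0. With 0 at the median gene-targeting guide, the median gene moved to -0.01, and 184 genes were depleted and 124 higher. With 0 at gene-targeting guides of like initial count, which was added after the data were seen, 194 were depleted and 111 higher.

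Depleted genes were found in all but 5 of the 43 pathway lists examined. With 9.46% of all genes depleted, a list of many genes can hold 1 at that share alone. The number of lists is therefore no result about them. The share within a list ran from 0% to 72.7%, and cytochrome P450 genes, for example, had 2 of 53 (3.77%). The 281 genes held 2630 guides, of which 1644 (62.5%) lay below the lowest 2.5% of control guides, called below the control range from here on, and 148 of the 281 had every guide below the control median. Guides of 1 gene often differed strongly. The median SD was 1.18 among depleted genes and 0.60 among genes with no call, and 61 depleted genes had an SD above 2. At the threshold, ADAD2, P2RX2 and CACNA1S lay just inside with scores of -1.003, -1.004 and -1.007. TTYH1, KCNJ10 and UQCRC2 lay just outside at -0.998, -0.995 and -0.994. P2RX2 encodes an ATP-gated channel, CACNA1S the calcium channel of skeletal muscle, KCNJ10 a potassium channel and UQCRC2 a core subunit of respiratory complex III.

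The control guides moved with initial abundance, and this bears on each score. In apilimod the 20 control guides with 100 to 199 initial counts had a median score of 1.69, and the 115 with at least 2000 had a median of -0.12. The same groups of gene-targeting guides were at -0.01 and -0.30. The corresponding low-count control guides lay at -0.20 in DMSO. The central 95% of control guides spanned -1.07 to 2.19 in apilimod and -0.93 to 0.71 in DMSO. Split into 4 groups by the median initial count of their guides, from low to high, 12.5%, 9.81%, 7.02% and 8.51% of genes were depleted. The part of guide abundance in the calls was not tested beyond these values.

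The lowest score of all was that of ATP6V0C, the proton-carrying ring subunit of the vacuolar ATPase, which acidifies lysosomes. The gene lies at chromosome 16, 2513726 to 2520218 (RefSeq, GRCh38.p14, as for all positions here). Its 10 guides held 157 to 2757 counts at day 0 and 0 to 377 counts in apilimod, and in sum they went from 7837 to 1357 counts. Every one of the 10 fell below the lowest 2.5% of control guides, with guide scores from -8.85 to -1.68. The gene score was -4.19 with an SD of 2.51, beside -3.26 in DMSO. Of 25 vacuolar ATPase genes scored, 11 were depleted in apilimod and 11 in DMSO, with list medians of -0.84 and -0.88. ATP6V1A, the catalytic subunit, scored -2.69 and ATP6V1D, a subunit of the central stalk, -2.67. The highest members were the kidney and bone isoforms ATP6V1G3 at 0.12 and ATP6V0D2 at 0.18.

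The drug's own target was not among the depleted genes. PIKFYVE lies at chromosome 2, 208266056 to 208358746. Its 9 kept guides held a median of 712 counts at day 0 and 601 in apilimod, and their scores lay between -0.74 and 0.13. The gene score was -0.36 with an SD of 0.33, close to the median of all genes, and the DMSO score was -0.06. FIG4, the phosphatase that works in a complex with PIKfyve, scored -0.01 in apilimod and -0.08 in DMSO.

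Other phosphoinositide enzymes ranged from strongly depleted to above the controls. Among 33 phosphoinositide kinases and phosphatases, 2 were depleted in apilimod (6.06%), below the 9.46% of all genes. The same number were depleted in DMSO, beside 6.33% of all genes, and the apilimod median was -0.30. PI4KA, which makes phosphatidylinositol 4-phosphate at the plasma membrane, scored -2.09 (SD 1.03), and its 9 guides were all below the control range. They held 128 to 742 counts at day 0 and 7 to 371 in apilimod. PIK3C3, the kinase that makes the substrate of PIKfyve, scored -1.89 (SD 1.61) with 10 of 10 guides below the control median. The DMSO scores were -1.12 for PI4KA and -1.83 for PIK3C3. Among 22 lysosomal channels and transporters 1 was depleted (4.55%), also below the share of all genes, with a list median of -0.19. It was CLCN6, a chloride-proton exchanger of late endosomes, at -1.22 (SD 1.18) against -0.42 in DMSO. The CLCN6 call was lost in 4 of 17 alternatives, with a score of -0.77 as the median over guides. NPC1, which exports cholesterol from the lysosome, scored -0.72, but its SD was 3.07 and only 4 of 10 guides lay below the control median. MCOLN1, a lysosomal cation channel, scored -0.75 with 5 of 9 guides below.

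Genes that make fatty acids from citrate were depleted in apilimod. SLC25A1 carries citrate out of the mitochondrion, ACLY splits it to acetyl-CoA, ACACA carboxylates acetyl-CoA and FASN builds palmitate. FASN, at chromosome 17, 82078338 to 82098236, kept 8 guides. They held 122 to 878 counts at day 0, 15 to 426 in apilimod and 116 to 1607 in DMSO. All 8 lay below the lowest 2.5% of control guides in apilimod, with guide scores from -3.77 to -1.14. The gene score was -2.06 (SD 0.92) in apilimod and -0.07 in DMSO. The remaining 2 FASN guides had 42 and 80 counts at day 0 and were left out by the minimum.

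ACACA, at chromosome 17, 37084992 to 37406836, scored -1.86 (SD 0.65) with 7 of 7 guides below the control median, beside -0.41 in DMSO. Its guides held 395 to 1888 counts at day 0, 95 to 855 in apilimod and 256 to 2025 in DMSO. SLC25A1, at chromosome 22, 19175581 to 19178736, scored -1.80 (SD 0.84) with 10 of 10 guides below, beside -0.31 in DMSO. ACLY scored -1.19 with 10 of 10 guides below and -1.43 in DMSO, so its value was no lower in apilimod. ACACB, the acetyl-CoA carboxylase of oxidative tissues, scored -0.21. ACSS2, which makes acetyl-CoA from acetate, scored -0.06, and ME1, a source of NADPH, -0.01. In all 5 of 11 genes of this list were depleted in apilimod and 2 in DMSO, with medians of -0.92 and -0.29. The fifth, MCAT, serves mitochondrial and not cytosolic synthesis.

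Elongation and desaturation of fatty acids gave calls at particular steps. HSD17B12 and TECR, which reduce the growing acyl chain in the endoplasmic reticulum for all elongases, scored -2.09 (SD 2.45, 6 of 7 guides below) and -1.15 (SD 1.11, 9 of 10 guides below). Their DMSO scores were -0.69 and -0.42. None of the 7 ELOVL elongases was called. The lowest was ELOVL1, which extends very long saturated chains, at -0.64 with 9 of 10 guides below the control median, beside 0.48 in DMSO. ELOVL7 was the highest at 0.36.

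SCD, the stearoyl-CoA desaturase that introduces the double bond of oleate, was among the lowest genes of the library. It scored -3.37 (SD 3.10) over 6 guides, with guide scores from -7.52 to -0.50, beside -3.96 in DMSO. CYB5B and CYB5R3, which belong to the cytochrome b5 system that passes electrons to such enzymes, scored -1.75 and -1.25. Their DMSO scores were -2.20 and -0.76. CYB5A, another cytochrome b5, was the highest of the list at 0.05, with 7 of 10 guides above the control median. CYB5R3 rested on few guides, since 2 of 9 lay below the control range and the lowest was at -7.58. FADS1 and FADS2, the desaturases of polyunsaturated fatty acids, scored -1.11 and -1.01, and their DMSO scores were -0.51 and -0.55. SCD5, the isoform of brain and pancreas, scored -0.24.

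In the mevalonate pathway the isoprenoid steps were depleted and the sterol steps were not called. Of 11 genes that make or condense isoprenoid units, 8 were depleted in apilimod, with a median of -1.72, and 6 in DMSO, with a median of -1.74. MVD, mevalonate diphosphate decarboxylase, was at -3.15 (SD 2.05) with 8 of 8 guides below the control range and -3.16 in DMSO. DHDDS, a subunit of the enzyme that builds the dolichol chain, was at -3.09 and GGPS1, which makes geranylgeranyl diphosphate, at -2.01. FDPS, which makes farnesyl diphosphate, scored -1.62 (SD 1.37) in apilimod and -0.49 in DMSO. Past that branch point 13 sterol genes gave 0 calls and a median of -0.26, equal to the median gene at this precision. FDFT1, squalene synthase, scored -0.34, LSS, lanosterol synthase, -0.11 and SQLE, squalene epoxidase, 0.41.

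Ceramide synthesis held 4 depleted genes of 12 (33.3%) in apilimod and 0 in DMSO, beside 9.46% and 6.33% of all genes. The list medians were -0.56 and -0.31. SPTLC1 and SPTLC2, subunits of serine palmitoyltransferase, scored -1.44 (SD 0.73) and -1.02 (SD 0.83) with 9 of 9 guides below the control median for each. SPTLC2 lay near the threshold, with 3 of 9 guides below the control range and a median guide at -0.58. Its call was lost in 8 of 17 alternatives. KDSR, which reduces the first product, scored -1.54 (SD 0.86) with 9 of 9 guides below, and CERS2, the synthase for very long chains, -1.37 (SD 0.82) with 10 of 10. The DMSO scores of these 4 genes were -0.98, -0.66, -0.72 and -0.79 in that order, so SPTLC1 stood just short of -1 there. The other ceramide synthases lay between -0.82 for CERS1 and 0.27 for CERS5, and the tissue-restricted subunit SPTLC3 was at 0.08. DEGS1 and DEGS2, the desaturases of the last step, were not called at -0.07 and -0.36. Beyond ceramide, 1 of 24 genes of complex sphingolipids was depleted, SPHK2, a sphingosine kinase, at -1.25 (SD 1.40, 3 of 9 guides below the control range). The SPHK2 call was lost in 4 of 17 alternatives, with a score of -0.88 as the median over guides.

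Phospholipid head-group synthesis held depleted genes at several steps in both arms. Of 15 genes for phosphatidylcholine, phosphatidylethanolamine and phosphatidylserine, 6 were depleted in apilimod and 3 in DMSO. PCYT1A, the rate-limiting enzyme of phosphatidylcholine synthesis, scored -3.15 (SD 3.36) with 8 of 9 guides below the control median. Its guides held 179 to 1681 counts at day 0, 0 to 729 in apilimod and 60 to 845 in DMSO, where its score was -1.48. In apilimod 2 of the 9 guides had 3 or fewer counts, and the median guide was at -1.80. In sum the guides held 2411 counts in apilimod and 2819 in DMSO, so the gap between the scores was not seen in the sums. PISD, which makes phosphatidylethanolamine in mitochondria, scored -3.04 and PTDSS1, a phosphatidylserine synthase, -1.35. CDIPT, which makes phosphatidylinositol, scored -2.86 in apilimod and -3.65 in DMSO. CRLS1, cardiolipin synthase, and PGS1, the step before it, were at -1.34 and -1.36. Among 21 genes of mitochondrial beta-oxidation 2 were depleted (9.52%), near the share of all genes. They were ACAD9, which is also an assembly factor of complex I, at -1.79 and ECHS1, a hydratase shared with branched amino acid breakdown, at -1.51 (SD 2.53). ECHS1 rested on its lowest guide, at -7.81, and scored -0.73 with no call when that guide was left out. No gene of 15 in ether lipid synthesis and peroxisomal oxidation was called.

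Nucleotide synthesis contained some of the lowest scores. Purine synthesis had the lowest median of the 43 lists examined, -2.20, with 10 of 14 genes depleted in each arm. PFAS, PPAT and GUK1, of which PPAT takes the committed step and GUK1 phosphorylates GMP, scored -3.17, -3.09 and -2.90. Pyrimidine synthesis had 5 of 8 genes depleted and a median of -1.34. CAD is the enzyme of its first 3 steps. The CAD guides held 168 to 2022 counts at day 0 and 0 to 1075 in apilimod. Its score was -3.32 (SD 2.64) in apilimod and -4.50 in DMSO. DHODH and UMPS, which complete UMP, were at -2.56 and -2.34 with DMSO scores of -3.83 and -3.13. CTPS1 scored -1.54 with a small SD of 0.42, and its partner CTPS2 -0.23.

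DTYMK, thymidylate kinase, had the second lowest score of the library at -4.11 (SD 2.70), with 8 of 8 guides below the control range and -4.14 in DMSO. Its guides held a median of 490 counts at day 0 and 36.5 in apilimod. TYMS, which makes the substrate of DTYMK, scored 0.24. DUT, which removes dUTP, had a score of -1.70 but only 7 of 10 guides below the control median, so it was not called. RRM1, a subunit of ribonucleotide reductase, was depleted at -2.10.

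In glycolysis 8 of 23 genes were depleted and 1 was higher. PGK1, phosphoglycerate kinase, scored -3.38 (SD 1.87) with 8 of 8 guides below the control range, ALDOA, aldolase, -2.37 and PKM, pyruvate kinase, -2.06. Their DMSO scores of -3.26, -2.40 and -1.96 were near the same values. HK1, a hexokinase, was among the highest of the list at 0.15. LDHB, the lactate dehydrogenase chain of oxidative tissues, was called higher at 0.50 (SD 1.06), at the threshold. Its highest guide was at 2.85 and its median guide at 0.37, and the call was lost in 7 of 17 alternatives.

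The pentose phosphate pathway had 5 of 11 genes depleted in apilimod and 3 in DMSO, with medians of -0.99 and -0.45. PGD, the second NADPH-producing enzyme of the pathway, at chromosome 1, 10399064 to 10420511, scored -3.09 (SD 1.46) with 10 of 10 guides below the control median. Its guides held 237 to 1360 counts at day 0, 4 to 546 in apilimod and 40 to 720 in DMSO, and its DMSO score was -1.68. TKT, transketolase, was at -1.99 and RPE and RPIA, which interconvert pentose phosphates, at -1.38 and -1.05. TALDO1, transaldolase, stood just outside at -0.99. DERA, a deoxyribose phosphate aldolase that feeds the pathway from nucleosides, was called higher at 0.71.

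Depletion was broad among genes of mitochondrial respiration. The genes of complexes I, III and IV, cytochrome c and the ATP synthase numbered 88, of which 45 (51.1%) were depleted in apilimod and 29 in DMSO, with medians of -1.03 and -0.78. CYCS, cytochrome c, scored -3.26 (SD 2.59), with 9 of 9 guides below the control median, and COX17, a copper chaperone for complex IV, -2.78. In complex I, 19 of 38 genes were depleted, led by NDUFAB1, an acyl carrier protein shared with mitochondrial fatty acid synthesis, at -2.09. NDUFS4 and NDUFV3 were at -0.06 each. ATP5D, of the ATP synthase, was at -2.23, and ATPIF1, the inhibitor of that enzyme, lay above the controls at 0.23.

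In the TCA cycle, which feeds electrons to respiration, 10 of 21 genes were depleted in apilimod and 6 in DMSO. SDHA, the catalytic subunit of succinate dehydrogenase, scored -3.56 (SD 3.01), with 8 of 10 guides below the control range and the other two up to 0.68. OGDH, of the oxoglutarate dehydrogenase complex, was at -2.65 and MDH2, mitochondrial malate dehydrogenase, at -2.07 beside -0.89 in DMSO. In the pyruvate dehydrogenase list 4 of 12 genes (33.3%) were depleted, beside 9.46% of all genes. They were DLD, PDHA1, DLAT and PDHB, at -1.34, -1.19, -1.14 and -1.05, and 1, DLD, passed in DMSO. The calls of PDHA1 and PDHB were each lost in 4 of 17 alternatives and that of DLAT in 2, while DLD kept its call in all. PDHX, the remaining component of the complex, was not called at -0.52 with 6 of 9 guides below the control median. The pyruvate carriers MPC1 and MPC2 had scores of -0.44 and -0.15, and the kinases that switch the complex off lay between -0.43 for PDK2 and 0.26 for PDK4.

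Cofactor pathways differed in their shares of depleted genes. Iron-sulfur cluster assembly had 7 of 11 genes depleted and a median of -1.82, and its lowest members were the reductases NDOR1 at -3.55 (SD 3.17) and FDXR at -3.22 (SD 1.99) and the assembly factor ISCA2 at -2.81. In the mitochondrial pathway for fatty acids and lipoate, 6 of 9 genes were depleted, with a median of -1.37, among them MCAT at -2.22 and LIAS, lipoic acid synthase, at -1.91 (SD 0.80, 8 of 8 guides below the control range). Coenzyme Q synthesis had 5 of 13 genes depleted, with COQ4 the lowest at -2.70, and heme synthesis 5 of 15, with UROD the lowest at -2.51. In NAD synthesis 1 of 15 genes (6.67%) was depleted in apilimod and 2 in DMSO. The first was NMNAT1, which makes NAD from its mononucleotide, at -1.25. NAMPT of the same list scored -1.14, but only 7 of 10 guides lay below the control median, so it was not called. In DMSO NAMPT was depleted at -1.15. Coenzyme A synthesis had 2 of 8, PPCDC and COASY, at -2.51 and -1.86. PPCDC had unusually even guides, with an SD of 0.54 and 10 of 10 guides between -3.37 and -1.49. The 4 pantothenate kinases upstream, PANK1 to PANK4, lay between -0.37 and 0.13.

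Among the glycan lists, the N-glycan precursor held the most depleted genes. Of 30 genes for the N-glycan precursor and dolichol, 13 were depleted in apilimod and 10 in DMSO. GMPPB, which makes GDP-mannose, scored -3.44 (SD 3.21). ALG1, the first mannosyltransferase of the precursor, scored -3.43 with an SD of 3.98, the largest of any depleted gene. Of its 9 guides, 3 fell from 293, 135 and 443 counts to 0, while others stayed near their starting level, such as a guide with 509 counts at day 0 and 564 in apilimod. The DMSO score of ALG1 was -1.80. In the hexosamine pathway PGM3, GFPT1 and NAGK were depleted at -2.08, -1.32 and -1.04. Heparan and chondroitin sulfate synthesis had 0 of 28 genes depleted, and GPI anchor synthesis 1 of 24.

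Among 29 amino acid transporters 2 were depleted (6.90%), below the 9.46% of all genes. They were SLC1A5 and SLC38A2, glutamine carriers of the plasma membrane, at -1.28 and -1.20, beside -0.49 and -0.86 in DMSO. In DMSO no gene of that list was depleted, against 6.33% of all genes. The SLC38A2 call was lost in 2 of 17 alternatives. SLC7A11, the cystine carrier, was at 0.13. ALDH18A1, for proline synthesis, scored -2.62, and DOHH, which completes hypusine from spermidine, -3.23 (SD 3.09) beside -1.67 in DMSO. FPGS, which retains folates in the cell, was depleted at -2.28 and AHCY, which clears the product of methyl transfer, at -2.20, whereas the serine synthesis genes PSAT1 and PSPH were at 0.24 and 0.28. SOD2 and SOD1, the superoxide dismutases of mitochondrion and cytosol, were depleted at -2.34 and -1.87. The zinc carrier SLC30A9 was at -1.91 and the copper importer SLC31A1 at -1.33. None of 18 sugar and monocarboxylate transporters was depleted, and the glucose carrier SLC2A1 came nearest at -0.77.

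The 12 genes called higher in apilimod had modest scores. The highest was SLCO1B7 at 0.88, a member of the organic anion transporter family, whose 10 guides all lay above the control median. They held 182 to 3162 counts at day 0, 423 to 4711 in apilimod and 196 to 4074 in DMSO, where the score was 0.08. DERA also had 10 of 10 guides above, from 0.02 to 2.42, and went from 7957 counts in sum to 14496 in apilimod and 12337 in DMSO. NCEH1, a hydrolase of cholesterol esters, was at 0.79 (SD 0.65) in apilimod and 0.72 in DMSO. PON3, a lactonase, AADAT, an aminotransferase, and GYS2, the glycogen synthase of liver, were at 0.72, 0.69 and 0.66, and SLC35A3, a nucleotide sugar carrier, and LIPM, a lipase, at 0.57 and 0.56. Of the 109 guides of the higher genes, 9 exceeded the highest 2.5% of control guides. With a rise of 1 required, 0 genes were called.

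Pairs of isoenzymes gave a comparison within the library between genes of like function. In 23 families chosen after the scores were seen, a member known to be expressed in most tissues was set beside a member known for a restricted tissue. Because of that choice the counts describe these pairs and test nothing. The widely expressed member had the lower score in 22 of 23 families. Beside 9.46% of all genes, 18 of the widely expressed members were depleted and 0 of the restricted ones. The medians were -1.51 and -0.25. In DMSO the widely expressed member was lower in 22 families and depleted in 15. PGK1 at -3.38 stood beside PGK2 of testis at -0.10 and PCYT1A at -3.15 beside PCYT1B at 0.14. The exception was COX7A2 at -0.32 beside COX7A1 of heart and muscle at -0.85. COX7A1 had an SD of 2.30, with 5 of 10 guides below the control median and the lowest at -7.20. Guide sequences were not analysed here, so matches of a guide to a related gene were not tested.

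Across the 43 pathway lists, 796 distinct genes were scored and 203 (25.5%) were depleted, against 9.46% of all genes. Of 2173 genes in no list, 78 (3.59%) were depleted. The lists were drawn up with results of these data known, so this share is a description. There were 6 lists with a median at or below -1, namely purine and pyrimidine synthesis, iron-sulfur assembly, isoprenoid supply, mitochondrial fatty acid synthesis and complexes III and IV. Just short of -1 were the pentose phosphate pathway and the TCA cycle at -0.99, and complex I and phosphatidylinositol and cardiolipin at -0.97. Across the alternatives that change scores, the median of complexes III and IV ran from -1.33 to -0.82.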

How the data were processed

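Guide counts were analysed from 3 pools of MIA PaCa-2 cells (initial population, DMSO and apilimod, 1 library each). The values deposited by the authors were raw counts per guide. Per the labels and the study's methods, reads were trimmed with cutadapt 4.1, aligned with Bowtie2 2.4.5 to the guide reference and counted with MAGeCK 0.5.9.5, and bcl2fastq is named without a version. No molecular identifiers were used, so counts are PCR copies, and depth bounds counting error only.

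Following the study's methods, guides needed 100 initial counts and genes 6 guides, a pseudocount of 1 was added, counts were divided by the library total, and log2 changes were averaged over guides. The median control guide was subtracted. Calls were made by size because 1 library per group gives no test. Genes, lists and call sizes were chosen with earlier results of these data known. Named genes were the 16 lowest depleted and 8 highest higher genes, the 3 lowest and 2 highest of each list, whole lists of at most 12, lipid genes named by the study, PIKFYVE, FIG4 and threshold neighbours. Some genes under this rule are not reported here. The 23 isoenzyme pairs and the genes of the closing observations were picked after their values were seen. Positions are from RefSeq (GRCh38.p14). The scoring was tested on simulated data. Alternatives changed the count minimum, pseudocount, summary, zero and call rule. Python 3.11.15, numpy 2.4.6, pandas 2.3.3 and scipy 1.17.1 were used.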

Additional observations from a re-analysis of the deposited data

Results flagged for a closer look

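Control guides with under 100 counts in the initial population, which no score above uses, had a median score of 3.12 in apilimod, with 9 of 12 guides above the median control guide. The same 12 guides had a median of -0.48 in DMSO. They were noted because the signal appears in guides outside the main measurement and exceeds its level in the DMSO library.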

How the results depend on the processing

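With 1 library per group no spread between cultures was measured, so the alternatives show only how the calls move with the processing. No paired analysis was possible because each group has 1 library. Of 17 alternatives, 12 change scores. No list median of 43 moved by more than the SD of its genes' scores, and no called gene named by the rule changed sign. That SD is a lax standard, since scores within a list can range widely, such as -3.15 to -0.03 for isoprenoid supply. The median of isoprenoid supply ran from -2.09 to -1.20, and that of fatty acid elongation from -0.33 to 0.17. Of 120 named depleted genes, 88 kept the call in every alternative, FASN, ACACA, SLC25A1, PGD and ATP6V0C among them, while SPTLC2 lost it in 8, FADS2 in 7, and TECR and ALG1 in 3 each. Beside 281 depleted genes, 184 were called with 0 at the median gene-targeting guide and 702 at a size of 0.5 below. An exact rank-sum test of each gene's guides against the control guides, at a Benjamini-Hochberg adjusted p under 0.05, called 862, and 789 with control guides of at least 300 initial counts. That test takes guides for replicates within these libraries and is no test of the condition. Leaving out each gene's lowest guide kept 205 of the 281. Beside 12 higher genes there were 25 with no count minimum, 22 with a minimum of 30, 30 without the lowest guide, 3 without the highest, 19 with control guides of at least 300 counts as 0, 124 with gene-targeting guides as 0, 111 with gene-targeting guides of the same decile of initial count as 0, 0 at a size of 1 and 7 by the rank-sum test. With a minimum of 300 counts, 4 of the 12 kept the call. The other alternatives stayed within 1.5 times the counts. The causes were not tested. Guides of low initial count limit the precision.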

Other observations

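Among the 78 depleted genes outside every list were several with functions that the pathways above do not cover, named here after their values were seen. SCAP, which escorts the lipogenic transcription factors SREBP to their activation, scored -2.47 (SD 1.63) with 9 of 9 guides below the control median, beside -2.93 in DMSO. SREBF1, which encodes SREBP1, scored -1.87 (SD 1.11) with 10 of 10 guides below, beside -2.25 in DMSO. SREBF2 was at -0.43 and the retention factors INSIG1 and INSIG2 at 0.07 and -0.39. MYC, a transcription factor of growth, was at -2.64 (SD 2.19) with 9 of 9 guides below and -2.48 in DMSO. HSD17B10, a mitochondrial dehydrogenase that is also part of the enzyme that trims transfer RNA, was at -3.08 (SD 3.08). RFK, riboflavin kinase, scored -2.37, PPA1, an inorganic pyrophosphatase, -2.16 and ATP2A2, the calcium pump of the endoplasmic reticulum, -2.11. The long-chain acyl-CoA synthetases, which activate fatty acids, gave 0 calls of 5, with ACSL4 the lowest at -0.98 and ACSL3 next at -0.70.

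Scores also varied with chromosome position, which was noticed from the higher genes. Positions here cover the 2851 scored genes whose symbol in the files is the current symbol of a protein-coding RefSeq gene. Of the 11 higher genes among them, 4 lay within 10 to 30 Mb of chromosome 12, namely DERA, GYS2, LDHB and BCAT1. SLCO1B7, the highest gene of all, had no position under this match, so it is not counted on any chromosome. The interval was chosen from the positions of these higher genes, so its counts are a description. In that interval 19 of 23 scored genes (82.6%) had a score above 0, against 561 of the 2851 (19.7%), and 1 was depleted. The median score there was 0.16 in apilimod and -0.00 in DMSO, where 11 of the 23 were above 0. Of 113 bins of 10 Mb with at least 10 scored genes, the bin at 20 to 30 Mb of chromosome 12 had the highest median, 0.14. The lowest was at 120 to 130 Mb of chromosome 9, with a median of -0.85 and 5 of 18 genes depleted, beside -0.53 in DMSO. The part of copy number or of guide properties in these values was not tested.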
